A study of Mus musculus with 8 samples.

Results

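Ucp2, the solute carrier of the inner mitochondrial membrane known as uncoupling protein 2, was examined together with 8 enzymes of glycolysis and the glucose transporter Slc2a1 in macrophages of the mouse heart. The 10 genes, Ucp2, Hk1, Hk2, Hk3, Pfkl, Pgk1, Eno1, Pkm, Ldha and Slc2a1, were taken by symbol from a table of 24516 genes, and all 10 were found. The hearts came from C57BL/6 mice of postnatal day 28, and sorted macrophages were divided into those derived from the endocardium (EcTM, 4 libraries) and those not derived from it (non-EcTM, 4 libraries). Both groups carry the same genotype, 1 Nfatc1Cre allele and 1 Rosa26 Tomato reporter allele. Cre driven by Nfatc1, a gene of the endocardium, switches on Tomato permanently, so a cell is assigned by the history of its lineage, and cells in which recombination did not occur would be sorted as non-EcTM. The EcTM libraries are E591, E592, E604 and E606 and the non-EcTM libraries N591, N592, N604 and N606, and libraries with the same number form a pair. Whether a pair comes from 1 animal, 1 litter or a pool is not stated. The p-values of the fits therefore rest on variation between these libraries, which the fits estimate partly across genes.

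Glycolysis turns glucose into pyruvate in the cytosol. Glucose enters through carriers such as Slc2a1, is phosphorylated by a hexokinase and committed to the pathway by phosphofructokinase. The later enzymes yield ATP, and lactate dehydrogenase can reduce pyruvate to lactate. Macrophages raise this pathway on inflammatory activation, whereas resident tissue macrophages rely largely on oxidation in mitochondria. Ucp2 is abundant in macrophages and other immune cells. It exports C4 metabolites such as aspartate and malate from the mitochondrial matrix in exchange for phosphate and has been linked to the production of reactive oxygen species.

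Library totals ran from 2152425 to 2937464 counts, at which 3 counts correspond to 1.02 to 1.39 CPM, counts per 1000000 counts. All 13 macrophage markers in the table passed the low-count filter, and their summed level was 28630 to 31571 CPM. The 7 erythrocyte markers were at 0 in every library. Of 10 endothelial markers 4 were at 0 throughout, Pecam1, Tek, Emcn and Npr3, but the summed level was 391.6 CPM in E591 and 1066 CPM in N591 against 35.1 to 248 CPM elsewhere. Summed fibroblast markers were likewise 126 and 188 CPM in these 2 libraries and 22.3 to 42.5 CPM in the others, with Pdgfra and Postn at 0. Nfatc1 itself had 0 counts in all 8 libraries. Of 9 measures, the total count and 8 summed marker levels, 0 passed a test between EcTM and non-EcTM (two-sided exact permutation tests, unadjusted p = 0.114 or above, adjusted p = 0.514 or above). That test ignores the pairs. Within pairs, the total count and the summed mural markers were lower in EcTM in 4 of 4, and the summed macrophage markers were higher in 4 of 4, at 30600 to 31571 CPM against 28630 to 31189 CPM. With 4 pairs, an exact sign-flip test, chosen after seeing the data, cannot give a p below 0.125, and it gave 0.125 for these 3 measures. Their part in the differences reported here was not tested. In bulk RNA, fewer cells with a transcript and less transcript per cell cannot be told apart.

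Ucp2 was by far the most strongly counted of the 10 genes. It ranked 27 by mean CPM among 14319 genes with a count and took 0.284% of all counts. The gene lies on the plus strand at chr7:100493337-100499629 (GRCm38.p6) and has 1 curated RefSeq transcript. Its level was 3760 CPM in E591, 2895 in E592, 2910 in E604 and 2776 in E606. In the non-EcTM libraries it was 3238 CPM in N591, 2582 in N592, 2681 in N604 and 2265 in N606. E591 was the highest library and N606 the lowest, and the ranges of the groups overlapped. Within each pair the EcTM library was the higher one, by 1.16-fold for E591, 1.12-fold for E592, 1.09-fold for E604 and 1.23-fold for E606. The means were 3085 ± 454 CPM in EcTM against 2692 ± 405 CPM in non-EcTM (SD, n = 4).

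The fitted difference for Ucp2, EcTM minus non-EcTM with the pair as a block, was 0.20 ± 0.05 on the log2 scale (SE), with a 95% interval of 0.09 to 0.30. This corresponds to 1.15-fold, with an interval of 1.07- to 1.23-fold. Ucp2 was selected on the counts of this same contrast, which an earlier paired DESeq2 fit called, and the enzymes were chosen beside it, so these values are a description and no p is given. The spread between pairs was wider than the difference between groups. Without the block the same difference carried an SE of 0.11.

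**Figure D1:**
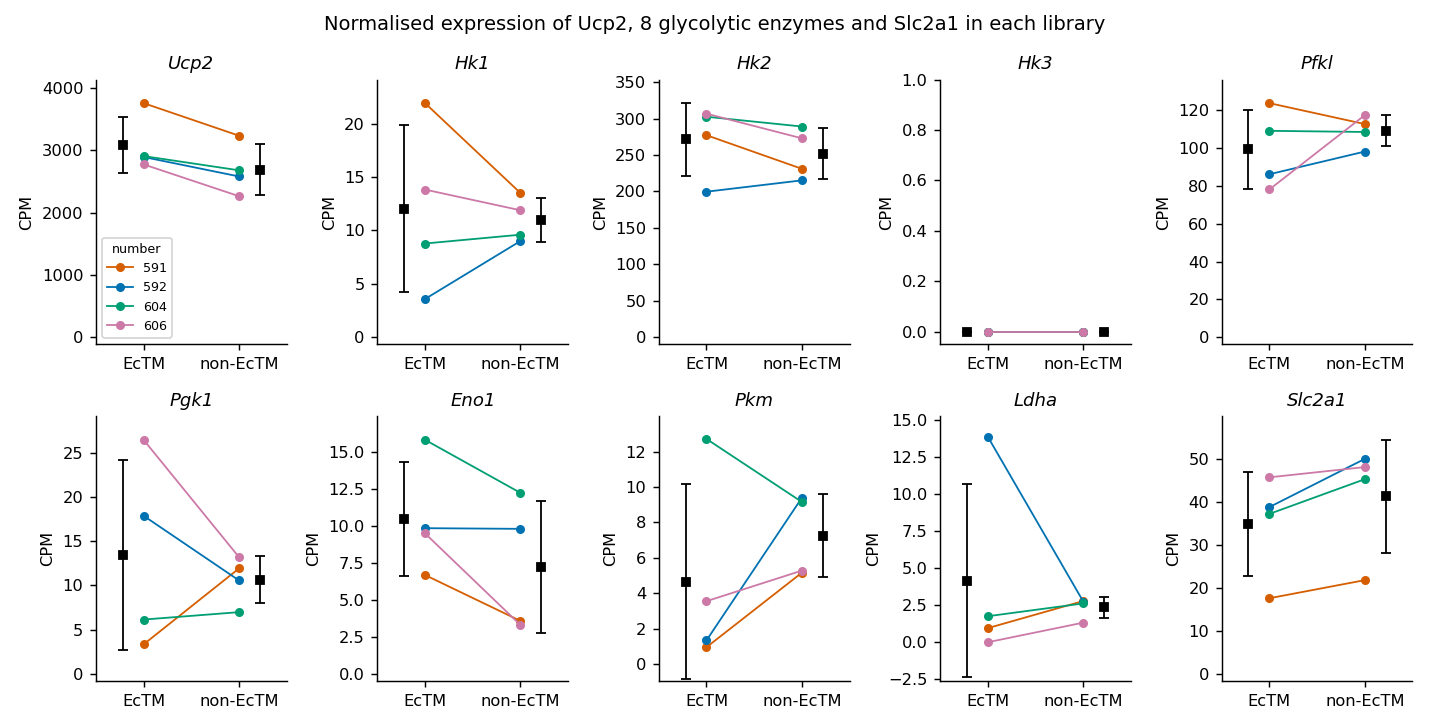
Normalised expression in CPM (vertical axis, from its own scale in each panel) of the 10 genes in 4 EcTM and 4 non-EcTM libraries. Coloured points are libraries, lines join the 2 libraries of a pair, and black squares with bars are the group mean and SD. Ucp2 falls along all 4 lines from EcTM to non-EcTM, Slc2a1 rises along all 4, and Hk3 is at 0.

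The promoters of Ucp2, Slc2a1 and Hk2 are shown because these 3 genes have 1 curated transcript, little sequence in common with other genes and enough counts for the comparisons made here. Each is the RefSeq sequence (GRCm38.p6) of the 250 bases before the first listed transcript start, 5′ to 3′ on the strand of the gene, and for Ucp2 that start lies slightly inside the outer boundary of the gene record. The positions are chr7:100493108-100493357 (plus strand) for Ucp2, chr4:119108495-119108744 (plus strand) for Slc2a1 and chr6:82774455-82774704 (minus strand) for Hk2. Capitals mark ACGTG, a form of the core of the hypoxia response element, or its reverse complement CACGT. The other form, GCGTG, was neither searched nor marked, and the sequences of Ucp2 and Slc2a1 below hold it or its reverse complement CACGC.
Ucp2: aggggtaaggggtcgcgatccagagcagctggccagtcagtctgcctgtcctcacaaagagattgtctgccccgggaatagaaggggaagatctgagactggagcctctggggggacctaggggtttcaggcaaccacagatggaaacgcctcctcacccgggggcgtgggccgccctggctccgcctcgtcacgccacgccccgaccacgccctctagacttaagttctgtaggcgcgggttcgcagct
Slc2a1: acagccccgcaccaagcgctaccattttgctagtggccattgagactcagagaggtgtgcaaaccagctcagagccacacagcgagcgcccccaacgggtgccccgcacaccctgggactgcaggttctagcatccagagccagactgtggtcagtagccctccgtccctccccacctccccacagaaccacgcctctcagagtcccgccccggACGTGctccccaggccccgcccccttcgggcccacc
Hk2: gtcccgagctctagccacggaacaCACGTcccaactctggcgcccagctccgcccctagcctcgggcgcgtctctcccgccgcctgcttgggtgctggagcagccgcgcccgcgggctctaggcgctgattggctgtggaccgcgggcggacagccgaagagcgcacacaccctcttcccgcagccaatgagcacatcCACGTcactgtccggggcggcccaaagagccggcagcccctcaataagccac

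The search covered both strands of 300 bases, the 250 shown and 50 after the start. Slc2a1 held ACGTG once, in the part shown, and Hk2 held it in 2 places. Ucp2 held no ACGTG, which says only that this form of the core is not in this window. In the first listed promoter, 5 of the 10 genes held ACGTG, namely Hk2, Hk3, Pgk1, Ldha and Slc2a1, and 19.7% of 27025 promoters of the same length did. Only Ldha held CACGTG, the E-box that contains ACGTG, which 7.24% of all promoters held. CCAAT, the box bound by NF-Y, was in 5 of the 10 genes, Hk2, Pgk1, Eno1, Pkm and Slc2a1, and in 37.9% of all promoters. A match of letters is a description and not a binding site.

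Slc2a1, the GLUT1 carrier that brings glucose into the cell, lies at chr4:119108745-119137330. Its level in EcTM was 17.6 CPM in E591, 38.9 in E592, 37.3 in E604 and 45.8 in E606. In non-EcTM it was 21.8 CPM in N591, 50.1 in N592, 45.4 in N604 and 48.2 in N606. E591 and N591 were the lowest of their groups, and EcTM was the lower library within every pair. The fitted difference was -0.25 ± 0.26 (log2, SE), with a 95% interval of -0.79 to 0.28 that includes 0. Means were 34.9 ± 12.1 CPM in EcTM against 41.4 ± 13.2 CPM in non-EcTM (SD, n = 4).

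The hexokinases, which trap glucose as glucose 6-phosphate, differed in their counts. Hk2, the inducible form that can bind mitochondria, lies at chr6:82725025-82774454. It had 277 CPM in E591, 200 in E592, 303 in E604 and 307 in E606, against 231 in N591, 215 in N592, 289 in N604 and 273 in N606. E592 and N592 were the lowest libraries of their groups, and EcTM was the higher library in 3 of 4 pairs. The difference was 0.10 ± 0.11 (log2, SE), and its 95% interval of 0.918- to 1.25-fold includes a change of the size fitted for Ucp2. Hk1, the widely expressed form, had only 224 counts over 8 libraries, and its range of 3.57 to 21.9 CPM in EcTM enclosed that of 9.0 to 13.5 CPM in non-EcTM. Its difference was -0.08 ± 0.54 (log2, SE), or -0.36 without E591 and N591 and 0.28 without E592 and N592. Hk3, the form typical of myeloid cells, was listed at 0 in all 8 libraries.

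Pfkl, the liver-type subunit of phosphofructokinase at the committed step, had 124, 86.2, 109 and 78.2 CPM in EcTM, and 113, 98.2, 109 and 118 in non-EcTM, in the order of libraries used above. The EcTM libraries spread more widely, and the lowest value was E606. The difference was -0.16 ± 0.17 (log2, SE), with a 95% interval of -0.50 to 0.19. The pairs ran from -0.58 for E606 to 0.13 for E591. Without E606 and N606 the fitted difference was -0.02, and without E591 and N591 it was -0.26.

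The enzymes of the second stage had few counts. Pgk1, which makes ATP from 1,3-bisphosphoglycerate, had 241 counts in all, with 3.33, 17.9, 6.14 and 26.5 CPM in EcTM, and 11.9, 10.6, 6.98 and 13.2 in non-EcTM. EcTM held both the lowest and the highest library, and the difference was 0.04 ± 0.59 (log2, SE), or 0.57 without E591 and N591 and -0.36 without E606 and N606. Eno1, which forms phosphoenolpyruvate, had 168 counts and levels of 6.67, 9.83, 15.8 and 9.48 CPM in EcTM, and 3.57, 9.78, 12.2 and 3.30 in non-EcTM. EcTM was the higher library within each pair, yet between E592 and N592 the log2 difference was 0.01, and the fitted difference was 0.67 ± 0.64 with a 95% interval of -0.66 to 2.00. Without E606 and N606 it was 0.40.

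Pkm, the pyruvate kinase of most tissues other than liver and red cells, had 117 counts. The counts were 2 in E591, 3 in E592, 29 in E604 and 9 in E606, against 13 in N591, 24 in N592, 21 in N604 and 16 in N606. E604 was the highest library and E591 and E592 were the lowest, so the groups overlapped. The difference was -1.16 ± 0.89 (log2, SE), with a 95% interval of -3.0 to 0.68. It was -0.52 with limma-voom, -0.63 without the block, -0.66 without E592 and N592, and -1.84 without E604 and N604. Ldha, which converts pyruvate to lactate, had 61 counts and did not pass the low-count filter. Its counts were 2, 31, 4 and 0 in EcTM and 7, 7, 6 and 4 in non-EcTM, so 1 library, E592, held 31 of the 61.

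Too few counts for a comparison were therefore found for Hk3 and Ldha, which were not tested. Hk1, Pgk1, Eno1 and Pkm were tested, with an SE of 0.54 to 0.89 on the log2 scale. Only Ucp2, Hk2, Pfkl and Slc2a1 had an SE of 0.26 or less.

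**Figure D2:**
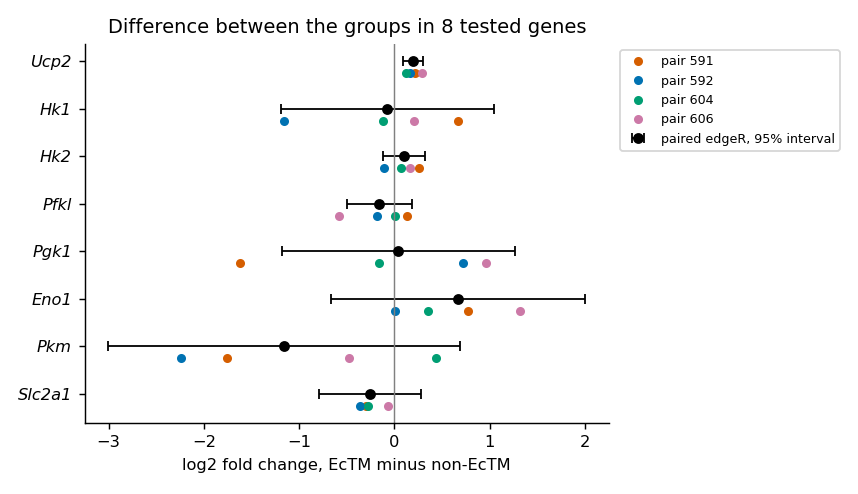
Difference in expression, EcTM minus non-EcTM, on the log2 scale for the 8 tested genes. Black points and bars are the paired edgeR estimate and its 95% interval, and coloured points are the 4 pairs. The Ucp2 interval, 0.09 to 0.30, is the narrowest, and those of Hk1, Pgk1, Eno1 and Pkm each span more than 2 log2 units.

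Across all genes, paired edgeR called 1 of 7667 at an adjusted p under 0.05 (0.0130%), and 0 of the 8 tested members were called. At an unadjusted p under 0.05 there were 414 of all 7667 genes and 1 of the 8, Ucp2. Paired DESeq2 called 17 of 4433 genes (0.383%) and paired limma-voom 19 of 7667 (0.248%), and in each the only member called was Ucp2. The choice of Ucp2 rested on this contrast, so nothing is read from its counts of calls. EcTM was the higher library in 4 of 4 pairs for Ucp2 and Eno1 and for 7.24% of all tested genes. It was the lower library in 4 of 4 pairs for Slc2a1 and for 6.89% of all tested genes. The groups did not overlap for 0 of the 8, against 2.70% of all tested genes. The median difference was -0.02 (log2) over the 8 members, 4 above and 4 below 0, and -0.01 over all tested genes.

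The difference between pairs was not used to choose the genes, so it could be tested. Ucp2 differed between the 4 pairs (edgeR quasi-likelihood F-test, adjusted p = 5.71e-04), and 1 of the 8 tested members passed against 3.04% of all tested genes. Its mean over both libraries of a pair was 3499 CPM for E591 and N591, 2739 for E592 and N592, 2795 for E604 and N604 and 2521 for E606 and N606. Relative to the first of these pairs, the log2 differences were -0.35, -0.32 and -0.48. Without E591 and N591 the difference between the remaining 3 pairs no longer passed (edgeR adjusted p = 0.650), so the call rests on that pair. These are the 2 libraries with the highest summed endothelial and fibroblast markers, and the part of those markers in the difference was not tested. Sex also went with the pair, as Xist had 1 count in E592 and 8 in N592 and the Y-linked Ddx3y 260 and 307, while Xist had 935 to 1682 counts in the other 6 libraries.

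For Slc2a1 the log2 differences from the pair E591 and N591 were 1.17, 1.06 and 1.26, opposite in sign to those of Ucp2, and did not pass (edgeR adjusted p = 0.227). Hk2 did not pass either (adjusted p = 0.204). The other 5 tested members had an adjusted p of 0.696 or above in this edgeR test. Over the 8 libraries the log2 CPM of Slc2a1 and Ucp2 had a Pearson r of -0.92 and a Spearman rho of -0.95. Leaving out E591 and N606, the libraries farthest from the median of Ucp2, gave an r of -0.96, and leaving out E591 and N591 gave -0.76. The libraries share pairs and sort groups, so these correlations are descriptions. For the other members r with Ucp2 ran from -0.53 for Pkm to 0.38 for Hk1, and was -0.01 for Hk2.

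**Figure D3:**
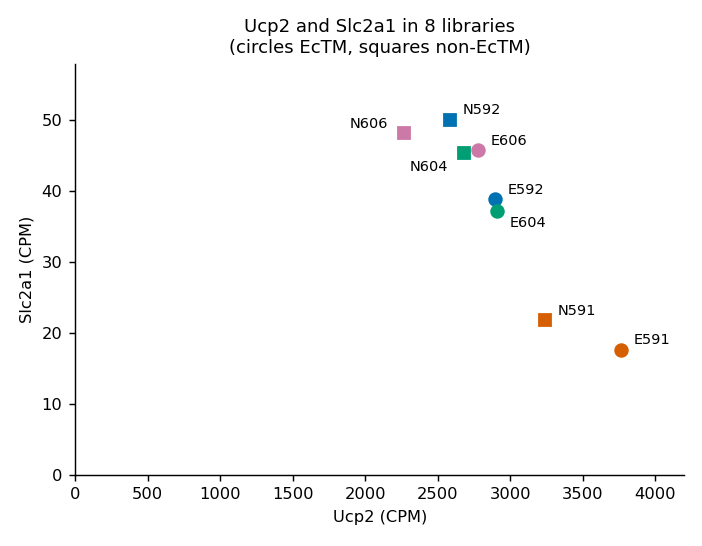
Slc2a1 against Ucp2 in CPM, both axes from 0, in 8 libraries (circles EcTM, squares non-EcTM, one colour per pair). E591 and N591 have the most Ucp2 and the least Slc2a1, and the other 6 libraries lie between 37.3 and 50.1 CPM of Slc2a1.

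In 3807 tested genes whose mean log2 CPM reached 5, the 5 whose levels over the 8 libraries were most like those of Ucp2 were Klf7 (Pearson r = 0.93), Plxdc2 (0.92), Polr3c (0.92), Glg1 (0.91) and Abca9 (0.90). These are the highest of many correlations over 8 libraries that share pairs, so they are a description only. Klf7 is a Krüppel-like transcription factor and Polr3c a subunit of RNA polymerase III. Of its relatives, Ucp3, whose gene lies 6904 bases from Ucp2, had 0 to 2 counts per library. Ucp1, the uncoupling protein of brown fat, had 0 to 3 counts.

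Levels between genes were compared per kilobase of the longest curated transcript, and only among genes with 1 curated transcript and little shared sequence. Ucp2 had 724 ± 113 CPM per kb over 8 libraries (SD), Hk2 47.5 ± 7.44 and Slc2a1 11.7 ± 3.74. The ranges did not overlap, with 568 to 943 for Ucp2, 36.2 to 55.7 for Hk2 and 5.41 to 15.4 for Slc2a1. The GENCODE transcript of Ucp2 used for this length, 3988 bases, extends beyond the end of the RefSeq gene. Dividing by a shorter length would give Ucp2 a higher value.

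Several enzymes with low counts share sequence with other genes. Of 50-base words in the transcript, 72.2% for Eno1, 68.0% for Pgk1, 34.4% for Pkm and 16.6% for Ldha occur in the transcripts of another gene, mostly pseudogenes. The closest gene was Eno1b for Eno1 and Pgk1-rs7 for Pgk1. The share was 6.50% for Ucp2, all with the neighbouring gene Dnajb13, and 2.55% for Hk1, 1.74% for Slc2a1, 0.0543% for Pfkl and 0% for Hk2 and Hk3. How reads that fit several places were counted is not given in the sources used here, so Eno1, Pgk1, Pkm and Ldha are uncertain. Curated transcripts number 1 for Ucp2, Hk2, Pgk1 and Slc2a1, 2 for Hk1 and Pfkl, 3 for Eno1 and Ldha, 4 for Hk3 and 11 for Pkm.

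The number of curated transcripts was also set beside the counts in the members and the metabolic gene lists pooled. With 1 curated transcript, 101 genes had a median total of 691 counts and 2.97% were at 0. With 2 there were 45 genes, with a median of 268 and 20% at 0. With 3 or more there were 40 genes, with a median of 14 and 25% at 0. Over all protein-coding genes the step was smaller, with medians of 18, 7 and 7 counts and 36.6%, 39.2% and 38.2% at 0 for 1, 2 and 3 or more curated transcripts. The part of gene models in the counts of Hk3, Pkm and Ldha was not tested.

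**Figure D4:**
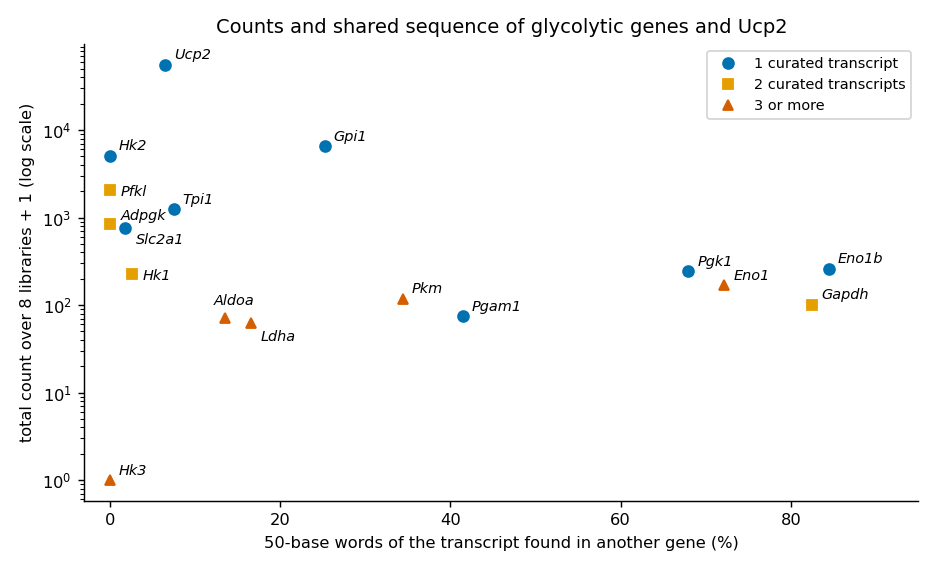
Total count over 8 libraries plus 1 (vertical, log scale) against the percentage of 50-base words of the transcript found in another gene, for the 10 members and 7 other glycolytic genes. Symbols give the number of curated transcripts. Ucp2 (55798 counts), Gpi1 (6529) and Hk2 (5118) lie highest, and Pgk1, Eno1, Eno1b and Gapdh lie at the right with at most 258 counts.

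The remaining enzymes and isozymes of glycolysis were a list of 22 genes, of which 7 were tested, 0 were called by paired edgeR in either direction and 0 had an unadjusted p under 0.05. DESeq2 called 0 of them as well. Their median difference was 0.14 (log2), 5 above and 2 below 0. Gpi1, which isomerises glucose 6-phosphate, averaged 351 ± 45.5 CPM in EcTM against 319 ± 38.9 CPM in non-EcTM (SD, n = 4), a difference of 0.14 ± 0.11 (log2, SE). Tpi1, the triosephosphate isomerase, gave -0.16 ± 0.22, and Adpgk, which phosphorylates glucose with ADP, 0.26 ± 0.27. Gapdh, named here for its low count after its values were seen, had only 100 counts in all, with 82.5% of its words shared with 222 other genes, and its difference was 0.17 ± 0.91. Isozymes of the members' steps gave few counts: Pgk2, Pklr and Ldhb were at 0 in every library, Hkdc1 had 1 count, Eno3 2, Eno2 3, Ldhc 9, Pfkm 10 and Pfkp 44. Eno1b, with 258 counts, was the exception, with a mean of 14.0 ± 11.2 CPM in EcTM against 11.8 ± 3.41 CPM in non-EcTM (SD, n = 4).

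Of 10 other carriers of glucose and lactate, 4 were tested, 0 were called by paired edgeR, none had an unadjusted p under 0.05, and the median difference was -0.10 (log2). Slc2a3, the GLUT3 carrier, gave 0.24 ± 0.46 and the monocarboxylate carrier Slc16a7 gave -0.13 ± 0.23 (log2, SE).

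Of 23 regulators of glycolysis 13 were tested and 0 were called by paired edgeR or by DESeq2, with a median of 0.01 and 2 at an unadjusted p under 0.05. These were Mlxip, a glucose-sensing transcription factor also called MondoA, and Epas1, the hypoxia-inducible factor 2 alpha. Mlxip had 168, 169, 186 and 161 CPM in EcTM against 205, 245, 196 and 207 CPM in non-EcTM. All 4 EcTM libraries lay below all 4 non-EcTM libraries, and the difference was -0.32 ± 0.12 (log2, SE; edgeR adjusted p = 0.871). Among all tested genes, 2.70% had groups that did not overlap, in either direction. Epas1, which endothelial cells also express strongly, gave -0.41 ± 0.19 (log2, SE; edgeR adjusted p = 0.907). The SE was 0.33 with DESeq2. In 1 of 4 pairs EcTM was the higher library, with 101 CPM in E606 against 66.3 CPM in N606. Epas1 had 233 and 388 CPM in E591 and N591 and 36.6 to 112 CPM in the other libraries. Its highest values were thus in the libraries with the most endothelial markers, whose part in the difference was not tested. Pdk2, a kinase that inhibits pyruvate dehydrogenase, gave -0.63 ± 0.33 (log2, SE) at an edgeR adjusted p of 0.922. It was lower in EcTM in 4 of 4 pairs, as were 6.89% of all tested genes.

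Beyond glycolysis, 0 genes were called by paired edgeR, and 0 by DESeq2, in the lists of pyruvate entry (8 of 10 tested), the tricarboxylic acid cycle (15 of 19), the pentose phosphate pathway (6 of 8), gluconeogenesis and glycogen (10 of 14), mitochondrial carriers (21 of 31), fatty acid oxidation (11 of 16) and antioxidant enzymes (17 of 23). At an unadjusted p under 0.05 there was 1 gene each in the pentose phosphate, glycogen and carrier lists and 0 in the other 4. Tkt, the transketolase of the pentose phosphate pathway, gave 0.23 ± 0.11 (log2, SE). Ugp2, which makes UDP-glucose for glycogen, had 28.1, 29.0, 28.1 and 32.8 CPM in EcTM, and 24.2, 17.6, 9.16 and 23.8 in non-EcTM. All EcTM libraries of Ugp2 lay above all non-EcTM libraries, at 0.73 ± 0.35 (log2, SE; edgeR adjusted p = 0.914). Groups did not overlap, in either direction, for 2.70% of all tested genes. Slc25a51, the mitochondrial carrier of NAD, belongs to the same family as Ucp2 and gave 0.42 ± 0.20 (log2, SE; edgeR adjusted p = 0.907), higher in EcTM in 4 of 4 pairs. Medians of the 7 lists ran from -0.18 for antioxidant enzymes to 0.14 for the pentose phosphate pathway.

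**Figure D5:**
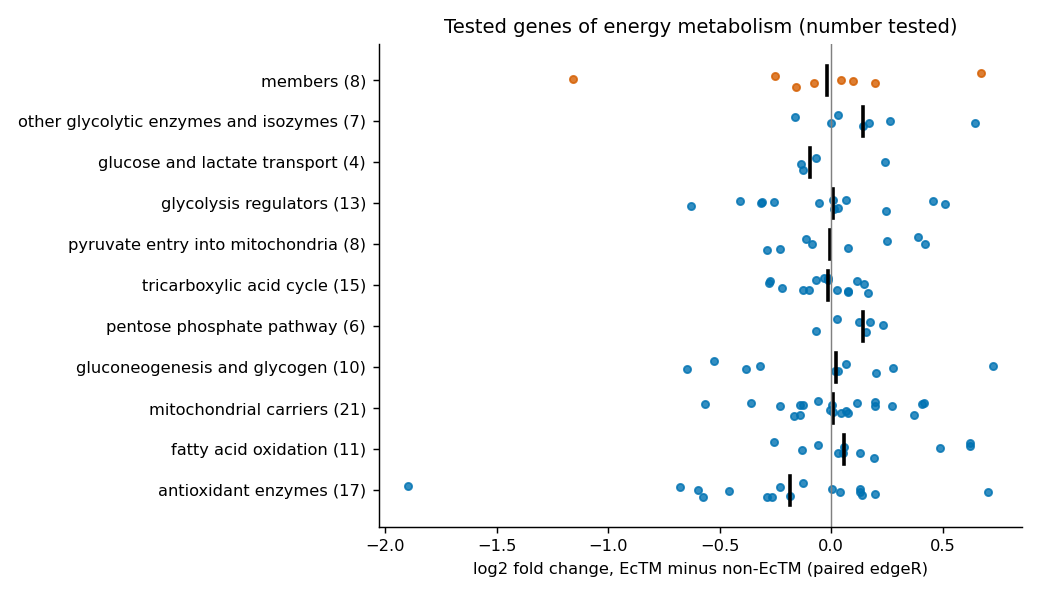
Difference between EcTM and non-EcTM on the log2 scale (paired edgeR) for each tested gene of the members and 10 metabolic lists, with the number tested in parentheses and the median as a black line. Vertical scatter within a list has no meaning. Medians lie between -0.18 and 0.14.

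Between pairs, 3 of the 112 tested genes of these lists passed the edgeR test (2.68%, against 3.04% of all tested genes), and they are named for that after their values were seen. Epas1 had an adjusted p of 6.65e-07. Cpt1a, which admits long-chain fatty acids to mitochondria, had an adjusted p of 8.96e-05, with 436 and 459 CPM in E591 and N591, 353 and 321 CPM in E592 and N592 and 229 to 254 CPM in the other 4 libraries. Hmox1, the inducible heme oxygenase, had an adjusted p of 0.0272 and was lowest in E591 at 968 CPM and N591 at 1042 CPM. Ucp2, Cpt1a and Epas1 were each highest in E591 and N591, the pair with the most endothelial and fibroblast markers.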

How the data were processed

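RNA of sorted macrophages was prepared on micro columns, and a stranded Pico kit gave the libraries, per the labels. Per the submitters' processing notes, bcl2fastq 2.17, TopHat, DESeq2 and R 3.2 were used with the mm10 build. The program that assigned reads to genes, and whether it used strand, is not given in the sources used here. Raw counts deposited by the authors for 24516 genes in 8 libraries were used, and their deposited log2 values of the same libraries were not.

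The 10 members and all gene lists were chosen with earlier results of these data known. Genes were kept with filterByExpr at its defaults (7667 genes, 99.3% of counts). EcTM and non-EcTM were compared in edgeR 4.0.16 (quasi-likelihood F-test, R 4.3.3), with TMM normalisation, the pair as a block and Benjamini-Hochberg adjustment over all tested genes at 0.05. CPM use TMM-scaled totals. Each edgeR SE is the size of the fitted log2 difference divided by the square root of its F statistic. The fit shares information on spread across genes, so an SE need not follow the spread of a gene's own pairs. Slc2a1 had an SE of 0.26 and an SD between pairs of 0.12, and Epas1 0.19 and 0.67. The same fit gave the test between pairs, with the group as a covariate. Scripts were tested on simulated counts. The pairing rests on the numbers in the titles: after removal of group means, libraries of the same number correlated across genes at 0.12 to 0.19 (4 pairs), and other pairs across groups at -0.13 to 0.05 (12 pairs).

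Alternatives were no block, DESeq2 1.42.0, limma-voom (limma 3.58.1), other scalings and filters, genes with 1 curated transcript alone, and leaving out each pair. Besides the members, up to 4 tested genes with the smallest unadjusted p per list, isozymes of the members' steps, and the 5 genes most like Ucp2 were named, and 1 isozyme is not reported here. Log2 CPM used a prior count of 2. Coordinates and promoters are from RefSeq (GRCm38.p6), matched by Entrez number for 24447 genes, and shared words of 50 bases were searched in GENCODE M21 transcripts on both strands.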

Additional observations from a re-analysis of the deposited data

Results flagged for a closer look

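In 18 groups of 4 libraries (9 genes with a count, in EcTM and in non-EcTM), 4 held a library far from the other 3 by Dixon's test at the 95% level, which chance gives in about 1 in 20 groups. Ucp2 in EcTM had 3760 CPM in E591, and the next library had 2910 CPM. Slc2a1 in non-EcTM had 21.8 CPM in N591, and the next had 45.4 CPM. Both libraries belong to the pair E591 and N591, in which endothelial and fibroblast markers were highest, and the part of those markers was not tested. Ldha in EcTM had 13.9 CPM in E592, from 31 counts, and the next had 1.75 CPM. Ldha in non-EcTM had 1.32 CPM in N606 against 2.62 CPM in the next, from 4 and 6 counts.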

How the results depend on the processing

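Paired edgeR called 1 gene between EcTM and non-EcTM. The count was 0 with no replicate block, 17 with DESeq2, 19 with limma-voom, 10 with no low-count filter, 0 among genes with 1 curated transcript alone, and 1 to 2 when each pair was left out. Genes of the metabolic lists gave 0 calls in all 13 alternatives. Ucp2 stayed above 0 in all 13, at 0.16 to 0.22 (log2), and was 0.20 ± 0.11 (SE) without the pairing. Ucp2 was chosen on this contrast in these same libraries, so its stable sign is no support for the difference. Slc2a1 stayed below 0 in all 13 (-0.32 to -0.21) and Hk2 above 0 in all 13 (0.05 to 0.17). Pfkl stayed below 0 in all 12 (-0.26 to -0.02), Pkm below 0 in all 11 (-1.84 to -0.52) and Eno1 above 0 in all 11 (0.40 to 0.91). These alternatives refit the same libraries, so a stable sign is no support for these genes either. In the main fit the 95% intervals of Slc2a1, Hk2, Pfkl, Pkm and Eno1 all include 0. Hk1 was above 0 in 3 of 12 and Pgk1 below 0 in 2 of 13. The median over the members was -0.02, 0.14 with limma-voom and -0.11 to 0.02 when each pair was left out. Between pairs 233 genes passed, 435 with DESeq2, 350 with no low-count filter and 146 to 179 when each pair was left out. The adjusted p of Ucp2 between pairs was 4.06e-04 to 0.650 on leaving out each pair, the highest without E591 and N591. Causes were not tested, apart from the fewer genes or libraries that a setting leaves. Counting error alone, from the summed counts of each group, would give Hk1, Pgk1, Eno1 and Pkm an SE of 0.19 to 0.28 (log2), below the fitted 0.54 to 0.89, and their pairs differed with an SD of 0.57 to 1.22. Hk3 and Ldha had too few counts to be tested.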

Other observations

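The 2 genes here, outside the comparisons, were picked after their values were seen. Dnajb13, a cochaperone known from sperm and motile cilia, lies next to Ucp2 on the opposite strand and shares sequence with the end of the GENCODE transcript of Ucp2. It had 199 to 471 counts per library and 2821 in all, which is 2.83% to 7.27% of the count of Ucp2 in the same library. The RefSeq gene models of the 2 genes do not overlap. The strand setting of the counting is not given in the sources used here. Whether reads from the stretch shared with the GENCODE transcript entered the count of either gene was not tested.

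Pfkfb1, the liver-type enzyme that makes and degrades fructose 2,6-bisphosphate, had 3, 6, 3 and 2 counts in E591, E592, E604 and E606 and 0 in each non-EcTM library. The 14 counts are too few for the filter, so the gene was not tested, and a library at 0 allows up to 3 counts. The share of all genes that split this way at such low counts was not worked out, so the split is a description only.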
